A study of Mus musculus with 4 samples.

Results

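The miRNAs described here come from the imprinted Dlk1-Dio3 locus of the mouse. They were chosen by the number in the probe ID from a fixed set of 10 miRNAs (miR-127, miR-134, miR-136, miR-154, miR-299, miR-323, miR-329, miR-337, miR-370 and miR-376a), of which 5 had a probe among the 178 probes of the value table used here: 1org-127, 1org-134, 1org-136, 1org-154 and 1org-299. The other 5 were not analysed here. Of the 178 probes, 171 were for miRNAs and 7 for control RNAs. Activated mouse T cells had been transduced either with Foxp3, the lineage factor of regulatory T cells, or with a control vector, and the RNAs of both were hybridised together on 2-colour arrays at 72 h and at 96 h. Each time point had 2 arrays with the dyes exchanged, 4 arrays in all, where replicate 1 carried the Foxp3 RNA in Cy5 and replicate 2 in Cy3. All samples were activated and transduced cells, so no comparison here speaks of resting cells. The 2 arrays of a time point share their RNAs and count as 1 replicate, so n is 2 time points, and no label says whether these came from separate cultures. The values are ratios, which give no level, so neither the T cell label nor the amount of any miRNA could be checked, and no probe measured Foxp3. In such bulk RNA, fewer cells of a type and less RNA per cell cannot be told apart.

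The Dlk1-Dio3 locus on distal mouse chromosome 12 is imprinted: protein-coding genes such as Dlk1, Rtl1 and Dio3 are expressed from the paternal chromosome, and the noncoding RNAs Meg3, Rian and Mirg, with a large number of miRNAs, from the maternal one. These miRNAs are known chiefly from embryo, placenta and brain. miR-127 and miR-136 are made from a transcript antisense to Rtl1 and direct the cleavage of Rtl1 mRNA. miR-134 is known in neurons, where it restrains the translation of Limk1 in dendrites.

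The mature sequences are shown because their seeds set the targets of each miRNA, and because the probe IDs do not say which arm was measured. They are RefSeq sequences on build GRCm38.p6, given 5′ to 3′ with the seed (bases 2 to 8) in capitals. All 5 probes matched a RefSeq hairpin, 3 through the platform annotation (Mir136, Mir154 and Mir299a) and 2, which the annotation did not list, by the number in the ID alone (Mir127 and Mir134).
miR-127-5p: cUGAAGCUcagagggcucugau
miR-127-3p: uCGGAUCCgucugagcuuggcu
miR-136-5p: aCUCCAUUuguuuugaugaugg
miR-136-3p: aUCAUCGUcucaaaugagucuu
miR-299a-5p: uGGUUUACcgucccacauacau
miR-299a-3p: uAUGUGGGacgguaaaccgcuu
miR-134-5p: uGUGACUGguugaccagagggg
miR-134-3p: cUGUGGGCcaccuagucacc
miR-154-5p: uAGGUUAUccguguugccuucg
miR-154-3p: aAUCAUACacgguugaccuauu

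The 10 arms carried 10 different seeds, so no 2 of these miRNAs share a seed. GC content ran from 36.4% for both arms of miR-136 to 65.0% for miR-134-3p. The seed of miR-299a-3p is also that of miR-299b-3p, from a hairpin on the opposite strand, and the seed of miR-134-3p is also that of miR-3620-5p. The whole of miR-299b-5p (21 bases) lies within miR-299a-5p, and the whole of miR-299b-3p (18 bases) within miR-299a-3p, so 1org-299 may not tell Mir299a from Mir299b.

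All 5 hairpins lie on the plus strand of chromosome 12. In the order along the chromosome, Mir127 is at chr12:109592846-109592915 and Mir136 at chr12:109595327-109595388, both within the listed span of Rtl1. Mir299a follows at chr12:109710638-109710700 and Mir134 at chr12:109734139-109734209, between genes, with Mirg the next gene after both. Mir154, at chr12:109738433-109738498, lies within the listed span of Mirg. The probe 1org-300 is the 1 further probe of the locus found by a list of its other miRNAs. It is listed as Mir300, at chr12:109724313-109724391 between Mir299a and Mir134, and is given beside the others as no member of the set. Its miR-300-3p shares a run of 16 bases with miR-381-3p of the same locus.

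As deposited, the 5 probes lay together below 0 on both 72 h arrays and spread apart on the 96 h arrays. Each value is given below as deposited, in the order 72 h replicate 1, 72 h replicate 2, 96 h replicate 1 and 96 h replicate 2. The values are taken as log2 ratios of the channels. For scale, the medians of the 171 miRNA probes on these arrays were -0.59, -0.83, 1.27 and 0.02, so 96 h replicate 1 stood apart from the other 3 arrays, and values without it are given beside the means, the 96 h ratios, the time differences, the lists and the profiles.

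Of the miRNAs made from the Rtl1 antisense transcript, 1org-127 had -1.025, -1.47, 2.11 and -0.90. 1org-136 had -0.66, -1.11, 3.97 and 1.19. Both were below 0 and below the miRNA median on both 72 h arrays, 1org-136 at only -0.07 and -0.29 from that median. 1org-136 was the only one of the 5 above 0 on both 96 h arrays.

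Of the miRNAs near Mirg, 1org-299 had -1.21, -0.49, 4.21 and -0.21. 1org-134 had -0.86, -1.38, 0.89 and -1.13, and was the only one of the 5 below the miRNA median on all 4 arrays. 1org-154 had -0.96, -1.43, 3.27 and -0.22, close to the middle of the 5 on each array. The neighbouring 1org-300 had -1.66, -1.42, 1.34 and -0.62, lower than all 5 on the first 72 h array.

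**Figure D1:**
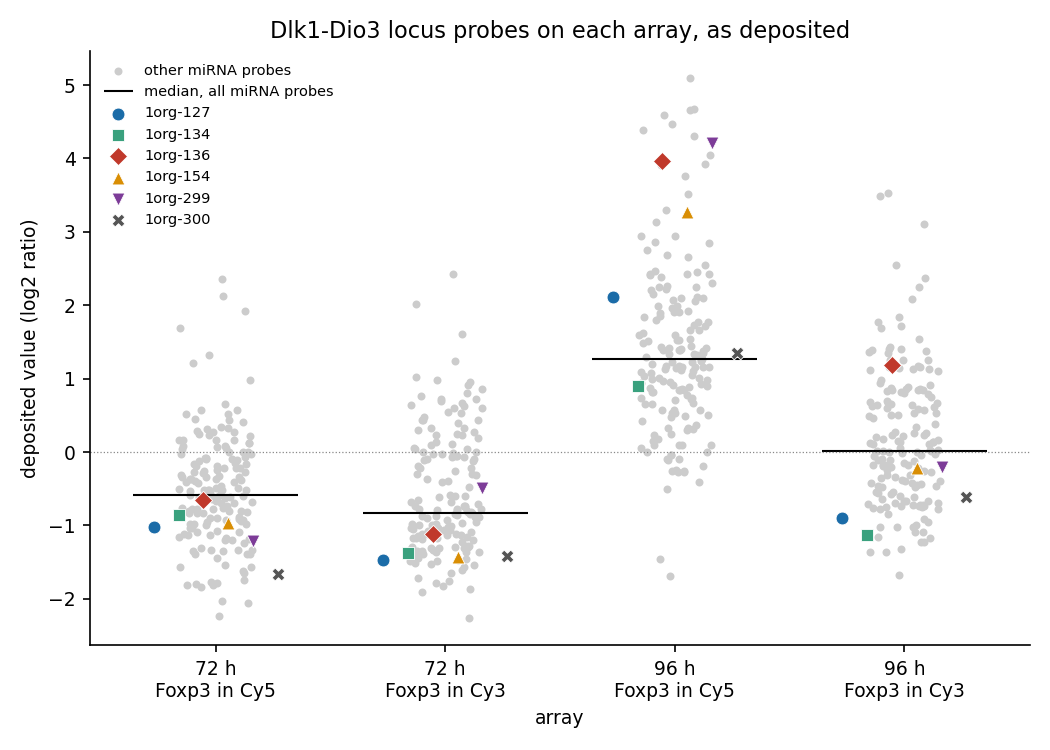
Deposited log2 ratio (vertical axis) of the 5 Dlk1-Dio3 probes and of 1org-300 on each of the 4 arrays (horizontal axis), with the other miRNA probes in grey and the median of all 171 miRNA probes as a line. The 5 probes span 0.55 on 72 h replicate 1 and 3.32 on 96 h replicate 1, where 1org-299, 1org-136 and 1org-154 lie far above the median of 1.27.

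The range over the 5 probes was 0.55 and 0.98 on the 72 h arrays and 3.32 and 2.32 on the 96 h arrays, against 4.60, 4.70, 6.79 and 5.21 over all miRNA probes. A range widens with the number of probes. In the same order, the SD over the 5 was 0.20, 0.41, 1.38 and 0.90, against 0.77, 0.83, 1.22 and 0.95. The 5 thus lay closer together than all probes at 72 h, but not clearly so at 96 h. On 72 h replicate 1 all 5 were below the miRNA median, and on its partner 4 of 5 were, the exception being 1org-299. On 96 h replicate 1 only 1org-134 was below it. There, 1org-299 ranked 8th of 171 from the top, 1org-136 10th and 1org-154 16th, while 1org-127 ranked 41st and 1org-134 115th. On 96 h replicate 2, 4 of 5 were again below the median, with 4.68% of the probes below 1org-134 and 9.94% below 1org-127, and 1org-136 stood at rank 23.

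The direction of the ratios is not settled. Over the 171 miRNA probes, which are no independent replicates, Pearson's r between the deposited values of both arrays was 0.66 for 72 h and -0.12 for 96 h. Exchanged dyes would give a negative correlation if the ratios were Cy5 over Cy3 and the samples rather than the dyes set them. The r for 72 h was positive, so these conditions did not hold together there. Cy5 was channel 2 on every array, so the values were read as Cy5 over Cy3 and those of replicate 2 were multiplied by -1. In the Cy5 over Cy3 reading positive values stand for higher in Foxp3-transduced cells only if that direction holds. They are called likely higher, and negative ones likely lower, where likely marks the assumed direction and not how probable it is. The main results are also given with all values taken as Foxp3 over control just as deposited, called the already turned reading below. Ratios and calls with an array left out are given in the Cy5 over Cy3 reading only. Replicate 1 of each time point has the same sign in both readings.

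The first comparison asked whether these miRNAs differed between Foxp3-transduced and control cells over both time points. Over all 171 miRNA probes the median of the means was 0.45 (log2), so most probes had means likely higher in Foxp3-transduced cells. All 5 did too, from 1.55-fold to 1.99-fold, and none of the 5 passed the test. 1org-154 had the largest mean log2 ratio, 0.99 ± 1.07 (SD, n = 2), followed by 1org-299 at 0.93 ± 1.82, 1org-127 at 0.86 ± 0.91, 1org-136 at 0.81 ± 0.82 and 1org-134 at 0.64 ± 0.53. The SD between the time points exceeded the mean for 1org-127, 1org-136, 1org-154 and 1org-299, and came close to it for 1org-134.

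None of the 5 passed an adjusted p of 0.05 in limma's intercept-only fit over all 171 miRNA probes, where 0.0% of probes passed in either direction. Their adjusted p ran from 0.485 for 1org-154 to 0.578 for 1org-134. At an unadjusted limma p under 0.05, 1 of the 5 passed, 1org-154, beside 8.19% of all probes likely higher and 1.17% likely lower. Every probe had the same standard error of 0.479 in this fit, from the variance pooled over probes. The median of the 5 means was 0.86, beside 0.45 over all miRNA probes, and none of the 5 had 1 sign on all 4 arrays, beside 1.75% of all probes likely higher and 5.85% likely lower. 1org-300 had a mean of 0.43 ± 0.78 (SD, n = 2) and a limma adjusted p of 0.611.

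Means over both time points changed sign with the reading for 1org-127 and 1org-134. When the values were taken as already turned, 1org-136 was at 0.84, 1org-299 at 0.58 and 1org-154 at 0.16, while 1org-127 was at -0.32 and 1org-134 at -0.62, and 0 of 5 passed limma (adjusted p = 0.998 for each), beside 1.75% of all probes higher. At an unadjusted p under 0.05, 0 of the 5 passed in that reading, beside 2.92% of all probes. Single arrays decided much of the result in the Cy5 over Cy3 reading. Without 72 h replicate 1, limma called 4 of the 5, 1org-127 at 1.49, 1org-154 at 1.59, 1org-136 at 1.25 and 1org-134 at 1.20 (lowest adjusted p = 0.0246), together with 94 of the 171 probes. Without 96 h replicate 1, 1org-136 was below 0 at -0.48 and 1org-299 at -0.07, and the median of the 5 was 0.23.

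At 72 h, the question was whether any of the miRNAs differed in both dye orientations. In the Cy5 over Cy3 reading none did: each of the 5 had opposite signs on the 2 arrays, and the means lay near 0. 1org-134 was the highest, at -0.86 and 1.38 on the turned arrays, with a mean of 0.26 ± 1.58 (SD between the 2 arrays). 1org-299 was the lowest, at -1.21 and 0.49, with a mean of -0.36 ± 1.20. The other 3 had means between 0.22 and 0.24. Thus 0 of 5 passed 1.5-fold with 1 sign on both arrays, beside 2.34% of all probes likely higher and 5.26% likely lower, and the median of the 5 was 0.23, beside 0.07 over all miRNA probes.

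With the values taken as already turned, all 5 were lower in Foxp3-transduced cells on both 72 h arrays. 1org-127 had a mean of -1.25 ± 0.32 (SD between the 2 arrays), 1org-154 -1.20 ± 0.33, 1org-134 -1.12 ± 0.37, 1org-136 -0.89 ± 0.32 and 1org-299 -0.85 ± 0.51. In fold terms 1org-127 was 2.38-fold lower and 1org-299 1.80-fold lower. All 5 passed 1.5-fold on both arrays, as did 53.2% of all probes in that direction, and 1org-300 passed as well at -1.54. Centred on the miRNA median of each array, 0 of the 5 passed in that reading, beside 29.8% of all probes higher and 14.6% lower, and their means ran from -0.54 for 1org-127 to -0.14 for 1org-299. A time point is 1 replicate, so these values have no test.

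**Figure D2:**
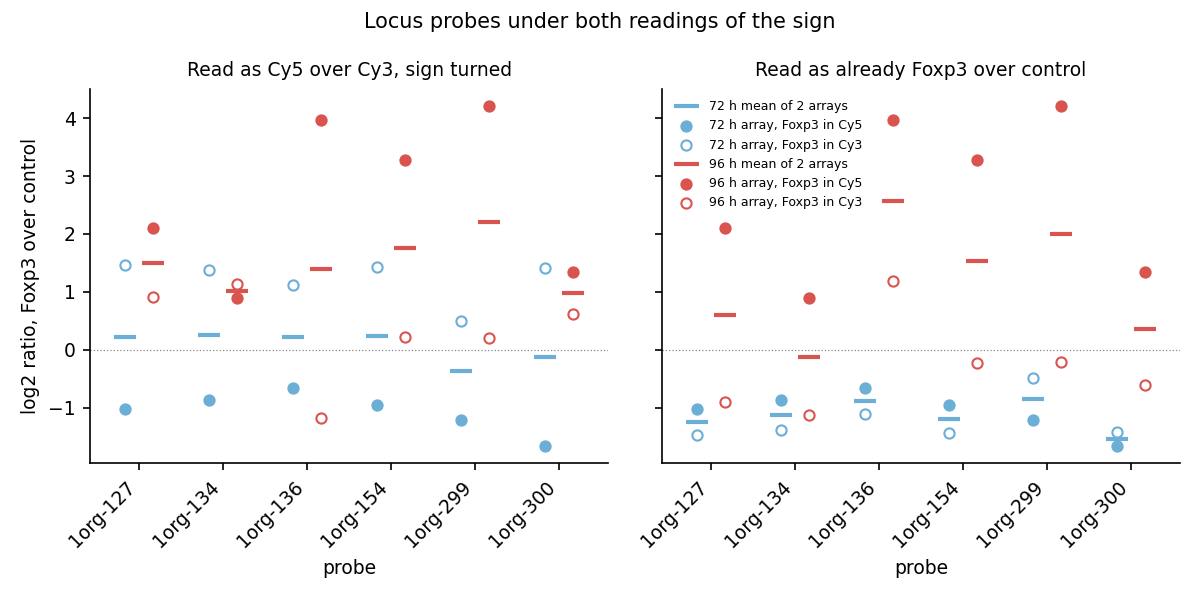
Log2 ratio of Foxp3 over control (vertical axis) for each probe (horizontal axis), on single arrays (filled circles, Foxp3 in Cy5; open circles, Foxp3 in Cy3) and as the mean of the 2 arrays of a time point (bars; blue 72 h, red 96 h). Read as Cy5 over Cy3 (left), the 72 h arrays lie on opposite sides of 0 for every probe; read as already turned (right), both lie below 0 for every probe.

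At 96 h, 4 of the 5 passed 1.5-fold with 1 sign on both arrays, all likely higher in Foxp3-transduced cells, beside 46.2% of all probes on that side and 5.26% likely lower, in the Cy5 over Cy3 reading. 1org-299 was the highest, at 4.21 and 0.21 on the turned arrays, with a mean of 2.21 ± 2.83 (SD between the 2 arrays), or 4.63-fold, the 6th highest of 171. 1org-134 was the lowest, at 0.89 and 1.13, with a mean of 1.01 ± 0.17, or 2.02-fold. The 2 arrays of 1org-134 thus agreed closely, and those of 1org-299 were far apart.

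Of the rest, 1org-154 had a mean of 1.75 ± 2.16 (3.36-fold) from 3.27 and 0.22. 1org-127 had 1.5045 ± 0.85 (2.84-fold) from 2.11 and 0.90. 1org-136 had a mean of 1.39 ± 3.64 but did not pass, since its arrays had opposite signs, at 3.97 and -1.19. The median of the 5 was 1.5045, beside 0.80 over all miRNA probes. 1org-300 passed too, at 1.34 and 0.62, with a mean of 0.98 ± 0.51.

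These 96 h values rested in different degrees on replicate 1. On replicate 2 alone, 1org-127 and 1org-134 were past 1.5-fold on the likely higher side, beside 41 of the 171 miRNA probes. 1org-136 was past it on the likely lower side, beside 56 of the 171. The median of the 5 was 0.22 there, against 3.27 on replicate 1 alone. Centred on each array's miRNA median, 3 of the 5 passed, beside 17.5% of all probes: 1org-299 at 1.59, 1org-154 at 1.13 and 1org-127 at 0.88. 1org-134 was then at -0.37 and 1.15 on the 2 arrays and did not pass. Centred on the U6 and tRNA probes, the same 4 probes passed as without centring, beside 63.2% of all probes.

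In the already turned reading, only 1org-136 passed at 96 h, at 3.97 and 1.19, with a mean of 2.58 ± 1.97 (SD between the 2 arrays), or 5.96-fold higher in Foxp3-transduced cells, beside 33.9% of all probes on that side. It was the 6th highest of 171 in that reading. 1org-299 had a mean of 2.00, 1org-154 1.52, 1org-127 0.60 and 1org-134 -0.12, each from arrays of opposite sign. Centred as well on the miRNA medians, 1org-136 still passed, at 1.93 (10.5% of all probes higher), and 1org-134 passed on the lower side, at -0.76 (6.43% lower), and had 1 sign on all 4 arrays, beside 11.7% of all probes.

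A further comparison asked whether the ratio changed between 72 h and 96 h. In the Cy5 over Cy3 reading the ratio at 96 h was above that at 72 h for all 5, by 0.75 for 1org-134, 1.16 for 1org-136, 1.28 for 1org-127, 1.51 for 1org-154 and 2.57 for 1org-299, the last the largest of the 171 probes. The median difference over all miRNA probes was also above 0, at 0.61, close to that of 1org-134. None of the 5 passed limma's time term over the 4 arrays (adjusted p = 0.990 for each, standard error 1.42), and 0.0% of all probes passed, also at an unadjusted p under 0.05. This fit treats the 2 arrays of a time point as separate samples, although they are taken to share their RNAs. Its p thus measures the spread between arrays only. Single arrays moved the differences: without 96 h replicate 1, that of 1org-299 was 0.57, of 1org-127 0.68, of 1org-134 0.87, of 1org-154 -0.012 and of 1org-136 -1.41, and without 96 h replicate 2, that of 1org-299 was 4.57. Without 72 h replicate 1, the difference of 1org-127 was 0.034 and that of 1org-134 was -0.37. Time points were called apart where their means differed by at least 1.5-fold and their arrays did not overlap, by however small a gap. This held for 0 of 5, beside 4.68% of all probes higher and 2.34% lower at 96 h. Centring by miRNA medians gave 2 probes apart (1org-127 and 1org-299), beside 13.5% of all probes, and centring by U6 and tRNA gave 3 (also 1org-154), beside 45.6%.

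Taken as already turned, 4 of the 5 were apart by this definition, all but 1org-134, with 96 h higher, beside 67.8% of all probes. The nearest arrays of 1org-127 were -0.90 at 96 h and -1.025 at 72 h, so its gap was small. Centred by miRNA medians as well, 1org-136 and 1org-154 were apart, beside 12.9%, and the nearest arrays of 1org-154 were -0.24 at 96 h and -0.37 at 72 h. The uncentred differences were 3.46 for 1org-136, 2.85 for 1org-299, 2.72 for 1org-154, 1.85 for 1org-127 and 1.00 for 1org-134. The median over all miRNA probes was 1.37, above the difference of 1org-134. None of the 5 passed limma (lowest adjusted p = 0.353), and 1org-136 was the 1 of the 5 with an unadjusted p under 0.05, beside 7.6% of all probes.

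Within a dye orientation, the deposited values can be compared between the time points without turning a sign. On the arrays with Foxp3 in Cy5, 1org-299 was 5.42 higher at 96 h than at 72 h, the largest difference of the 171 miRNA probes. 1org-136 was 4.63 higher (rank 9), 1org-154 4.24 higher (rank 12) and 1org-127 3.13 higher (rank 33), beside a median of 1.98 over all miRNA probes. 1org-134, at 1.75 (rank 101), lay below that median. The U6 and tRNA probes had a median of 0.55, while the other 2 control probes, 5.4S_snRNA and AJ007734_snRNA, were 3.77 and 2.92 higher.

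On the arrays with Foxp3 in Cy3 the order of the deposited values was another one. In the Cy5 over Cy3 reading these differences change sign, so that the rank from the top becomes the rank from the bottom. 1org-136 had the largest difference of the 171 probes, at 2.30, and 1org-154 followed at 1.21 (rank 36). 1org-127, 1org-299 and 1org-134 were at 0.57, 0.28 and 0.25, below the median of 0.75. As deposited, 1org-299 thus ranked 1st of 171 in one orientation and had only 20.5% of the probes below it in the other, while 1org-136 ranked 9th and 1st. Turned as Cy5 over Cy3, the 96 h ratio of 1org-136 was 4.63 above its 72 h ratio with Foxp3 in Cy5 and 2.30 below it with Foxp3 in Cy3. Each of these differences rests on 1 array per time point, with no test.

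**Figure D3:**
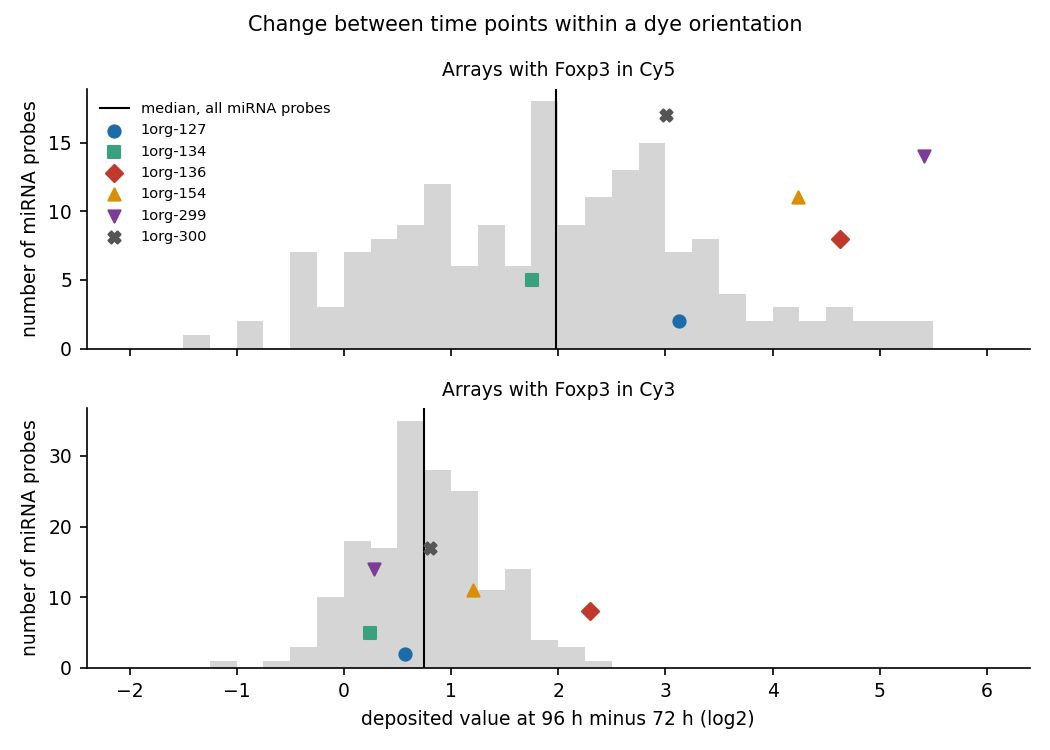
Number of miRNA probes (vertical axis) by the difference in deposited log2 ratio between 96 h and 72 h (horizontal axis), for the arrays with Foxp3 in Cy5 (above) and in Cy3 (below), with the median of 171 probes as a line. Markers give the locus probes at their difference, and their height carries no value; 1org-299 lies at 5.42 above and 0.28 below, and 1org-136 at 4.63 and 2.30.

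Probes of miRNAs typical of other cell types were set beside the locus probes, by number in the ID. At 96 h in the Cy5 over Cy3 reading the medians were 1.17 for 11 stromal and endothelial probes, 0.91 for 4 muscle, 0.89 for 3 liver, 0.88 for 9 embryonic stem cell, 0.86 for 10 neural and 0.85 for 6 epithelial probes. The 5 locus probes had 1.5045, 40 T cell and blood probes -0.07, and the U6 and tRNA probes -0.24. The other 2 control probes were higher than that: 5.4S_snRNA was at 2.04 and 0.14 on the turned 96 h arrays, and AJ007734_snRNA at 2.02 and 1.38. In these lists 9 of 11 stromal and endothelial, 7 of 9 embryonic stem cell, 6 of 10 neural, 3 of 4 muscle, 3 of 3 liver and 2 of 6 epithelial probes passed 1.5-fold on the likely higher side, against 6 of 40 T cell and blood probes. Over all miRNA probes the median was 0.80 and 46.2% passed on that side, so the neural, muscle, liver, embryonic stem cell and epithelial medians lay close to that of all probes. Their part in the result was not tested. In the already turned reading the counts were different: 1 of 11 stromal and endothelial, 2 of 9 embryonic stem cell, 4 of 10 neural, 1 of 4 muscle, 0 of 3 liver and 4 of 6 epithelial probes passed higher, against 14 of 40 T cell and blood probes and 33.9% of all probes. On 96 h replicate 2 alone, in the Cy5 over Cy3 reading, the median was 0.22 for the locus probes, beside -0.02 over all miRNA probes. The medians were higher than the locus median for liver (0.73), stromal and endothelial (0.65), embryonic stem cell (0.42), muscle (0.36) and neural probes (0.32). They were lower for epithelial (-1.66) and T cell and blood probes (-0.65).

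At 72 h the same medians lay between 0.02 and 0.17 for the lists of other cell types, and at -0.17 for T cell and blood probes. The 96 h medians of the already turned reading were 1.52 for the 5 locus probes, 2.70 for epithelial, 0.93 for stromal and endothelial, 0.63 for neural and 0.58 for T cell and blood probes. They were 0.63 for liver, 0.56 for embryonic stem cell and 0.50 for muscle probes, beside 0.65 over all miRNA probes. The 72 h medians in that reading were -1.12 for the locus probes, -1.31 for stromal and endothelial, -1.10 for embryonic stem cell, -0.92 for neural and 0.02 for T cell and blood probes. They were -1.03 for muscle, -0.86 for liver and 0.31 for epithelial probes, beside -0.67 over all miRNA probes.

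Imprinted miRNAs of other loci were represented by 1org-296, 1org-297 and 1org-298. At 96 h in the Cy5 over Cy3 reading their ratios ran from 0.06 to 0.44, below all 5 locus probes, and 0 of 3 passed 1.5-fold, beside 46.2% of all probes higher, while at 72 h they ran from -0.21 to 0.21. On 96 h replicate 2 alone, 1org-296, 1org-297 and 1org-298 were at -0.14, -0.20 and -0.655 in this reading. These values lay above that of 1org-136, at -1.19, and below those of the other locus probes. Taken as already turned, 2 of the 3 passed higher at 96 h, beside 33.9% of all probes.

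**Figure D4:**
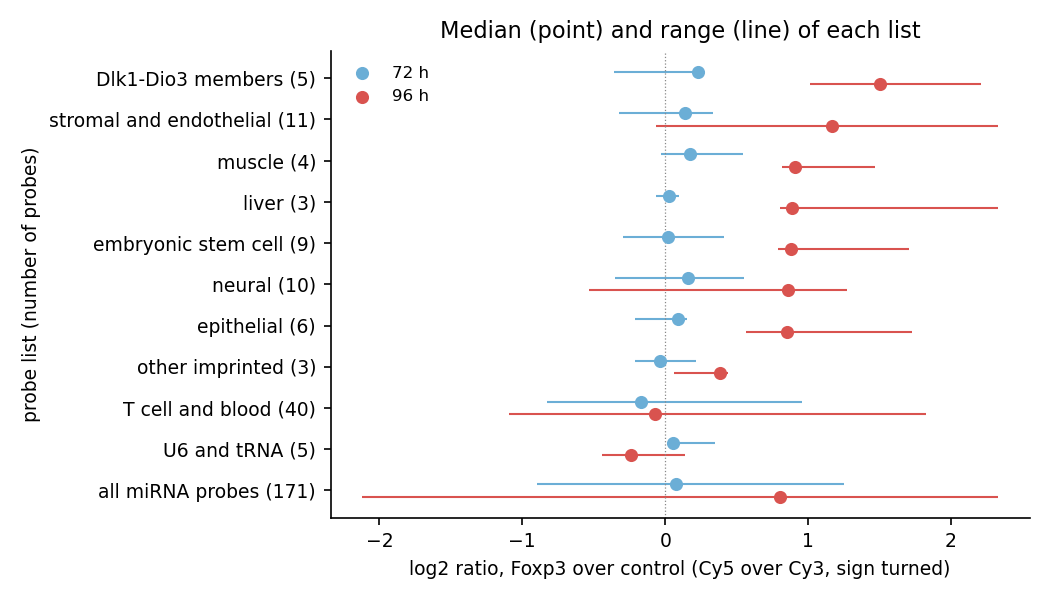
Median (point) and range (line) of the log2 ratio of Foxp3 over control (horizontal axis, Cy5 over Cy3 reading) for each list of probes (vertical axis, number of probes in brackets) at 72 h (blue) and 96 h (red). For the 5 locus probes the 72 h median is 0.23 and the 96 h median 1.5045, and for the T cell and blood probes they are -0.17 and -0.07.

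The 5 probes were then compared by profile, as the Euclidean distance over the 4 deposited arrays, each centred on its miRNA median. The median profile of the 5 was -0.37 and -0.55 at 72 h and 2.01 and -0.24 at 96 h. 1org-154 lay 0.05 from it, 1org-299 1.31, 1org-127 1.36, 1org-136 1.62 and 1org-134 2.55. The probes outside the set had a median distance of 2.40. The profile is the median of these same 5 probes, so their nearness to it is partly built in. 1org-154 itself gave that median on every array but 72 h replicate 2. Among themselves, the closest pair was 1org-127 with 1org-134, at 1.25, and the farthest was 1org-134 with 1org-136, at 3.87. Position did not order these distances: 1org-127 and 1org-136, the neighbours within Rtl1, lay 2.84 apart, and 1org-134 and 1org-154, the neighbours at Mirg, 2.55.

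The 5 probes outside the set nearest to the median profile were 1org-141 (distance 0.82), 1org-292-as (0.87), 1org-190 (0.87), 1org-126* (0.89) and 1org-187, listed as Mir187 (0.93). All of these were nearer to it than 1org-127, 1org-134, 1org-136 and 1org-299. 1org-300, at 2.09, lay 1.04 from 1org-127 and 1.06 from 1org-134, closer than to the other 3 members. Without 96 h replicate 1 these likenesses changed, and 0 of the 5 nearest probes were the same. The distances to the median profile were then 0.69 for 1org-127, 0.91 for 1org-134, 0.92 for 1org-299 and 1.47 for 1org-136. Probes outside the set had a median of 1.18. There too the profile came from the 5 probes themselves.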

How the data were processed

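The authors' deposited value table gives 1 log ratio per probe and array, taken as log2. Base, background correction, normalization, centring and direction are not given in the sources used here. Natural logs would enlarge every value alike. The 4 arrays are grouped by time point from the channel labels, and the replicate number stands for the dye orientation. No intensities were used here, so signal over background is unknown.

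Values were turned to Foxp3 over control and the arrays of a time point averaged. limma 3.58.1 (R 4.3.3) was fitted over 171 miRNA probes, intercept only, with Benjamini-Hochberg adjusted p under 0.05. A time term was fitted over the 4 arrays, taken as separate samples. Counts past 1.5-fold asked for 1 sign on both arrays. P-values measure the spread between time points or arrays, which may be technical. The fits were tried on simulated data of independent noise, without dye or array effects, so that trial does not speak to such effects here. Neural ID 7 was kept apart from 7a to 7i, read as let-7 after the annotation of 5 of them. All members were named, with other locus and imprinted miRNAs, the 5 nearest probes, and lists by cell type; the members and lists were chosen with earlier results of these data known. Alternatives were centring, the other reading, natural logs, 2-fold, a dye term, robust variance and each array left out; the already turned reading centred on U6 and tRNA, and lists and profiles without 96 h replicate 1, were added after seeing the data.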

Additional observations from a re-analysis of the deposited data

Results flagged for a closer look

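In the already turned reading, 1org-136 was below 0 on both 72 h arrays (-0.66 and -1.11) and above 0 on both 96 h arrays (3.97 and 1.19), a difference of 3.46 between 96 h and 72 h. It did not pass limma's time term in that reading (adjusted p = 0.353). In the Cy5 over Cy3 reading its arrays had opposite signs at both time points. No other locus probe had opposite signs of this kind in either reading.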

How the results depend on the processing

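The number of arrays and the unsettled direction limit every value here. No member passed limma over both time points under any alternative run except without 72 h replicate 1, where 4 did, and none passed the time term under any alternative run. Leaving out each array in turn was run in the Cy5 over Cy3 reading only. At 72 h, 4 members passed 1.5-fold likely higher without 72 h replicate 1, and 5 likely lower without 72 h replicate 2. At 96 h, 2 passed likely higher and 1 likely lower without 96 h replicate 1, and 5 likely higher without 96 h replicate 2. Members with 1 sign on all arrays numbered 0 to 4, and those with time points apart 0 to 4. Most of these counts have no share of all probes beside them, so they are no result about the members. With the dye orientation as a replicate block, limma called 0 members over both time points (lowest adjusted p = 0.800) and 0 between them (0.991). Members with time points apart numbered 0 as reported, 2 after centring on the miRNA medians, 3 on U6 and tRNA, 4 in the already turned reading and 2 in that reading centred on the miRNA medians. In the already turned reading 5 members passed 1.5-fold lower at 72 h and 1 higher at 96 h. Centred on the miRNA medians, 1 passed higher and 1 lower at 96 h, and 1 had 1 sign on all 4 arrays. Centring that reading on U6 and tRNA was an alternative chosen after seeing the data. There, 3 passed lower at 72 h and 1 higher at 96 h, with no share of all probes beside them. Signs turned round as follows, with the cause not tested. In the already turned reading the mean was -0.32 for 1org-127, -0.62 for 1org-134 and -0.59 for 1org-300, and the 96 h value of 1org-134 was -0.12; the 72 h values of 1org-127, 1org-134, 1org-136 and 1org-154, near 0 and above it as reported, were -1.25, -1.12, -0.89 and -1.20. Centred as well, these means were -0.29, -0.59 and -0.56, the 96 h values of 1org-127, 1org-134 and 1org-300 were -0.041, -0.76 and -0.28, and the time difference of 1org-134 was -0.35. Over the arrays left out in turn, the mean ranged from -0.48 to 2.10 for 1org-136, -0.074 to 1.93 for 1org-299, -0.34 to 1.20 for 1org-300, 0.24 to 1.49 for 1org-127, 0.077 to 1.20 for 1org-134 and 0.23 to 1.75 for 1org-154. The time difference ranged from 0.57 to 4.57 for 1org-299, 0.034 to 2.53 for 1org-127, -0.37 to 1.87 for 1org-134, -1.41 to 3.74 for 1org-136, -0.012 to 3.04 for 1org-154 and -0.44 to 2.65 for 1org-300.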
